A study of Mus musculus with 12 samples.

Results

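Emx1, Emx2, Lhx2, Otx1, Otx2, Tbr1, Dlx1, Dlx2 and Nkx2-2 are transcription factors that divide the embryonic forebrain into regions. They were taken by symbol from the annotation of the arrays, which gave 9 genes with 1 probe each, of 21738 probes and 15081 genes with a single symbol. The Emx, Lhx2, Otx1 and Tbr1 genes stand here for the cortex, Dlx1, Dlx2 and Nkx2-2 for ventral territories, and Otx2 for the rostral brain as a whole. The probes carry the identifiers X68881 (Emx1), X68882 (Emx2), NM_010710 (Lhx2), X68883 (Otx1), X68884 (Otx2), NM_009322 (Tbr1), NM_010053 (Dlx1), NM_010054 (Dlx2) and NM_010919 (Nkx2-2).

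The RNA came from neurospheres, free-floating balls of dividing neural precursors, which here derived from mouse cortex of gestational day 12.5. All cultures shared serum-free DMEM/F-12 medium with basic fibroblast growth factor, epidermal growth factor and leukemia inhibitory factor. There were 4 groups of 3 arrays: control and prominin cultures, each at 24 h and at 108 h. The controls are described as kept in growth medium alone. The prominin cultures also received an adenovirus that expresses prominin-1 (CD133, written R-prominin1 in the labels), a cell surface protein by which neural stem cells are often sorted. The design text instead names GFP-positive or prominin-positive neurospheres, and whether the controls received a GFP virus is not clear. With controls in medium alone, an effect of the virus and one of prominin-1 cannot be told apart. For prominin samples titled 24 h the treatment text says 108 h, and here the title was followed. Each array set a neurosphere RNA (Cy5) against a universal RNA of whole C57/Bl6 embryos of gestational day 12 (Cy3), with no dye swap. No label states whether replicates were grown as separate cultures, so the p-values measure only the spread between these samples.

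Values are log2 ratios of neurosphere to embryo RNA, where each unit is a 2-fold difference. The direction of the ratio is not stated and was read as sample over reference, and turned the other way every sign and order below would reverse. Read this way, all 4 tested mesenchyme probes and all 3 erythroid probes lay below the median probe. The arrays were centred on the median of 4532 probes measured on all 12. After centring, 0 is the median probe. Before it, 0 is the embryo reference itself, which lay 1.60 above that median on average. The 24 h arrays were the weaker ones: 10404 to 14465 probes were measured on them, against 15944 to 16598 at 108 h. Dim spots give ratios of small whole numbers, and these were 28.9 to 52.6% of a 24 h array's measured values but 2.55 to 7.68% of a 108 h array's. In the check of the tissue, 7 of 12 tested probes for stem cells and radial glia were called above the median probe and 1 below, and 4 of 6 for neurons below it (limma, adjusted p under 0.05). Over all probes 30.4% were called above and 25.5% below. Without centring, 6 of the 12 stem cell probes were called higher and 3 lower, beside 6.01 and 61.9% of all probes. Nes (−1.26) and Prom1 (−2.50) were then among the lower. With centring, Sox2 (3.82) and Fabp7 (3.66) of the defining stem cell genes were above. Hes1 (−1.66) was below, and Nes (0.34, adjusted p = 0.285) and Prom1 (−0.85, adjusted p = 0.0517) did not pass. Prom1 was lower in prominin than in control cultures at 24 h (−1.62 and −0.45 against 0.66 and 1.72) and higher at 108 h (−0.85 and −0.11 against −4.34 to −2.33), so at 24 h it went against the label. Whether the probe reads the viral transcript is not given in the sources used here. Prominin below means the cultures so labelled.

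These genes encode DNA-binding regulators that act in overlapping domains of the developing brain. Emx1, Emx2 and Lhx2 are active in the progenitors of the dorsal telencephalon, where Lhx2 is needed for cortical identity and Emx2 sets area position along the cortical sheet. Dlx1 and Dlx2 drive the production of inhibitory neurons in the ganglionic eminences, and Nkx2-2 patterns the ventral neural tube and later acts in oligodendrocyte precursors. The whole embryo holds all of these territories together with non-neural tissue, so a ratio to it is a difference in share of RNA and not an absolute level. In such bulk samples fewer cells of a type and less RNA per cell cannot be told apart.

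The 250 bases before the transcription start are shown for the factors with the highest levels, Nkx2-2 and Emx2, and for Tbr1, which held 2 of the motifs searched below. They come from RefSeq, 5′ to 3′ on the gene's strand, with the motifs in capitals.
Emx2, GRCm38.p6 chr19:59458440-59458689, plus strand: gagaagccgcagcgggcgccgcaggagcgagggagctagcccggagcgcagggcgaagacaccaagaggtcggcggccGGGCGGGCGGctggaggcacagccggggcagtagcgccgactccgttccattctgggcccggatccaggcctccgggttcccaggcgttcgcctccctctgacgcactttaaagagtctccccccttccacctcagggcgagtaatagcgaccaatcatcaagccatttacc
Nkx2-2, GRCm38.p6 chr2:147186403-147186652, minus strand: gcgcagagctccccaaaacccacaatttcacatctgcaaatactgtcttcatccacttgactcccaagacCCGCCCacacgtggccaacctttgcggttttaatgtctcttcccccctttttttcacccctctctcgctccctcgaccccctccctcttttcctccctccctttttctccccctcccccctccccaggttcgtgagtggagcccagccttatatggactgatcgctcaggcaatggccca
Tbr1, GRCm38.p6 chr2:61804203-61804452, plus strand: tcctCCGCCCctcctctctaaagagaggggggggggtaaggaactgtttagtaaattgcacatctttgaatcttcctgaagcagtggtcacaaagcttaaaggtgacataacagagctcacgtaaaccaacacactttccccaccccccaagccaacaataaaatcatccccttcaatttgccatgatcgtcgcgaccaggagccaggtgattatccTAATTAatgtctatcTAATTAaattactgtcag

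The capitals mark TAATTA, a core sequence that many homeodomain proteins bind, and GGGCGG, the GC box, searched on both strands, so that CCGCCC is its other strand. Overlapping copies were counted separately. Promoter entries were found for 8 of the 9 genes, in 12 windows, and not for Otx1. TAATTA lay in 3 of the 12 windows, 1 of Tbr1 and 2 of the 4 of Otx2, against 4.84% of all 32851 windows of this length. In the Tbr1 window it began 33 and 18 bases before the start, positions −33 and −18. The GC box lay in 6 of the 12 windows, each of another gene, against 32.7% of all windows. CpG dinucleotides numbered 5 to 30 per window, and 10 of the 12 windows lay above the median of 6 over all windows. A match describes the letters only. In the genome 5 of the 9 genes (Lhx2, Tbr1, Dlx1, Dlx2, Nkx2-2) lie on chromosome 2, and Dlx1 and Dlx2 are direct neighbours there among coding genes.

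Of the 108 values of the 9 factors, 81 were measured, 24 were listed as exact 0 and 3 held the top code of 16.61. Zeros and top codes were treated as missing. At 24 h 37 of 54 values were measured, 19 of them as small whole-number ratios. At 108 h 44 of 54 were measured, 1 of them as such a ratio. Emx1 and Lhx2 were measured on all 12 arrays, a state that 20.8% of all probes reached. Dlx2 was measured on 3. The top codes fell on Otx1 and Dlx2 in replicate 2 and on Nkx2-2 in replicate 3 of the prominin cultures at 24 h. At least 2 values in every group, the filter for the test, were present for Emx1, Emx2 and Lhx2 alone.

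Emx2 was enriched in the neurospheres, by an amount that depended on the scale. Its centred log2 ratios were 4.81 and 3.69 in controls at 24 h, where replicate 1 was a zero, and 2.70, 4.75 and 5.27 in prominin cultures at 24 h. At 108 h they were 5.00, 6.28 and 2.29 in controls and 4.07, 2.01 and 3.26 in prominin cultures. All 11 values lay above the median probe and above the reference, and the 4 groups overlapped after centring. As deposited the prominin cultures at 108 h stood at 1.47, 0.23 and 0.94, below both measured controls at 24 h (2.78 and 2.22). Prominin minus control at 108 h was then −2.49 (exact permutation p = 0.2). The mean was 4.01 ± 1.35 (SD, n = 11), or 2.45 as deposited. Among the measured probes of an array Emx2 ranked at the 95.8th percentile in the median.

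Lhx2, a LIM homeodomain factor of cortical progenitors, followed. It stood at 0.24, 3.30 and 4.26 in controls at 24 h and at 4.10, 0.88 and 4.25 in prominin cultures at 24 h. At 108 h it was at 1.11, 2.92 and 2.80 in controls and at 0.35, 1.91 and 3.63 in prominin cultures. All 12 values lay above the median probe and 8 of 12 above the reference. Each group spread from a low to a high array, and the 2 lowest values at 24 h were small whole-number ratios. The mean was 2.48 ± 1.52 (SD, n = 12), or 0.88 as deposited, and the median percentile was 84.2.

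Emx1, which in the mouse is largely restricted to the dorsal telencephalon, did not share the high level of Emx2. Its values were 2.78, −0.86 and 0.47 in controls at 24 h and −0.51, 0.30 and −1.58 in prominin cultures at 24 h. At 108 h they were 1.22, −0.46 and −1.66 in controls and −0.96, 0.68 and −3.66 in prominin cultures. They fell on both sides of the median probe in every group, and 11 of 12 deposited values lay below the reference. The mean was −0.35 ± 1.63 (SD, n = 12), or −1.95 as deposited.

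**Figure D1:**
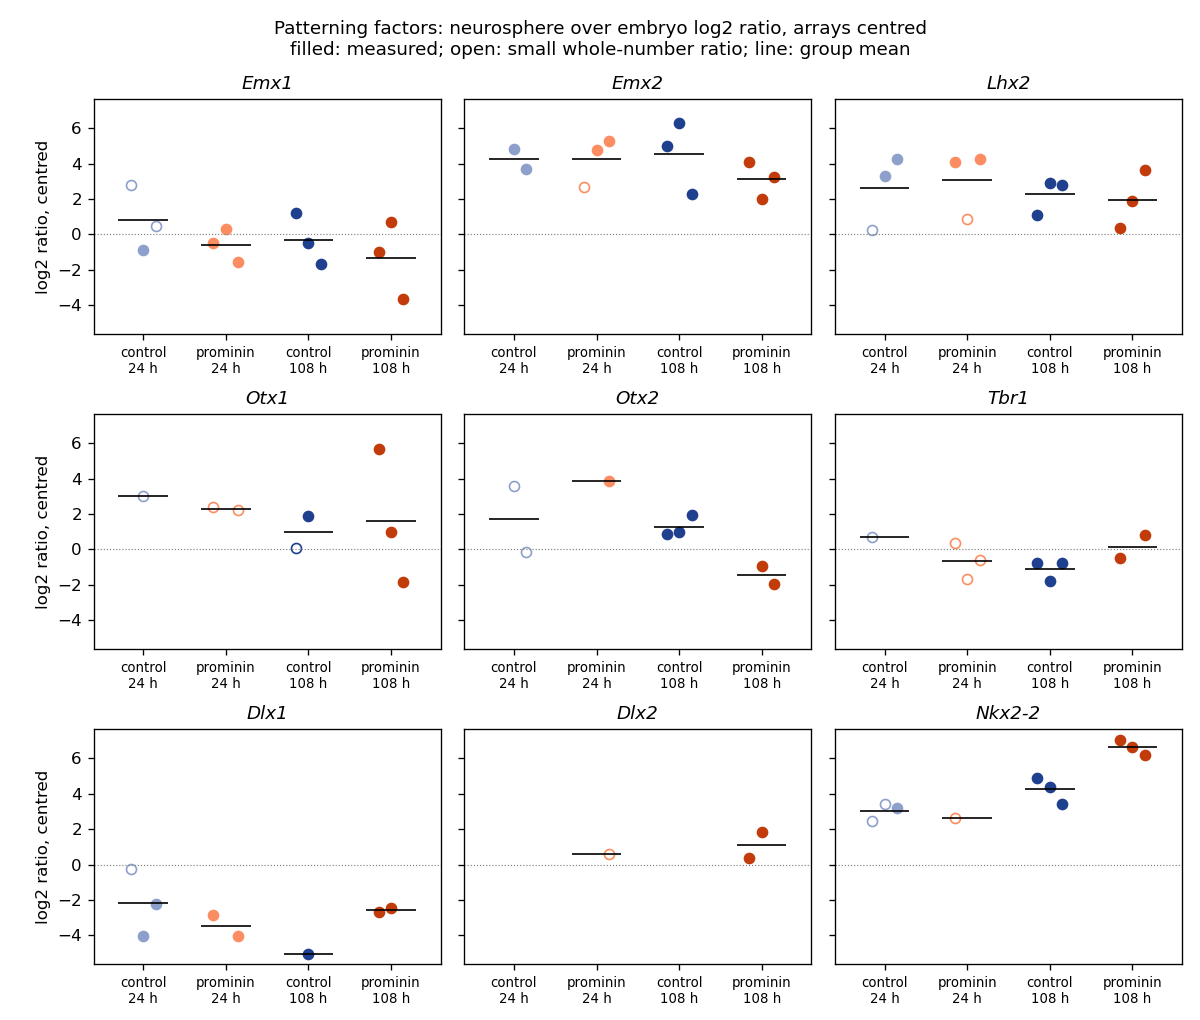
Each panel plots a factor's centred log2 ratio to the embryo reference (vertical) in the 4 groups, with a point per array and a line at the group mean, and open points are small whole-number ratios. Emx2 and Nkx2-2 lay above 0 on every measured array, Dlx1 below it, and Nkx2-2 at 108 h was highest in the prominin cultures.

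In the limma fit over 9155 probes, the mean of the 4 group means differed from 0 for 2 of the 3 factors tested, both higher: Emx2 (4.03, SE 0.41, adjusted p = 1.67e-05) and Lhx2 (2.48, SE 0.45, adjusted p = 0.00069). Emx1 did not pass (−0.35, SE 0.44, adjusted p = 0.506). The call was common: 55.8% of all probes passed, 30.4% higher and 25.5% lower. Scaling decides what the test asks. Against the reference itself, without centring, 67.9% of probes were called, 6.01% higher and 61.9% lower. There Emx2 stayed higher (2.46, adjusted p = 0.000315), Lhx2 no longer passed (0.88, adjusted p = 0.121), and Emx1 passed as lower (−1.95, adjusted p = 0.00202).

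A fit that asked for only 1 value in every group took in 15907 probes and 8 of the 9 factors, all but Dlx2. It called 4 of the 8, against 44.7% of all probes. Nkx2-2 (4.12, adjusted p = 7.65e-06), Emx2 and Lhx2 were among the 28.0% of probes called higher, and Dlx1 (−3.32, SE 0.51, adjusted p = 0.00158) among the 16.7% called lower. Otx1 (1.98, SE 0.83, adjusted p = 0.0833), Otx2 (1.36, SE 0.51, adjusted p = 0.0623), Tbr1 (−0.21, adjusted p = 0.659) and Emx1 did not pass.

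Otx1, which is active in the cortex and in deep-layer neurons, was measured on 8 arrays. Its centred values were 3.02 in a single control at 24 h and 2.38 and 2.21 in prominin cultures at 24 h. At 108 h they were 0.09 and 1.89 in controls and 5.65, 1.00 and −1.82 in prominin cultures. The 3 values at 24 h were all small whole-number ratios, and the widest spread lay within the prominin cultures at 108 h. The mean was 1.80 ± 2.19 (SD, n = 8), with 7 values above the median probe and 5 above the reference.

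Otx2, a factor that specifies the forebrain and midbrain of the early embryo, gave 3.61 and −0.12 in controls at 24 h and 3.89 in the single measured prominin culture at 24 h. At 108 h it was 0.88, 0.97 and 1.92 in controls and −0.94 and −1.95 in prominin cultures. The prominin values at 108 h lay below all 3 controls, as 8.94% of the 2327 probes with these numbers of values did. As deposited they did so too, beside 22.5% of those probes. The difference of 108 h minus 24 h, from 5 and 3 values without regard to treatment, was −2.29 (exact permutation p = 0.125). As deposited it was −2.31 (exact permutation p = 0.196). Over all arrays the mean was 1.03 ± 2.06 (SD, n = 8), and 4 of 8 deposited values lay on each side of the reference.

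Tbr1, a T-box factor of newly formed glutamatergic cortical neurons, gave 0.72 in a single control at 24 h and 0.38, −1.67 and −0.60 in prominin cultures at 24 h. These 4 values were small whole-number ratios. At 108 h it was at −0.74, −1.80 and −0.76 in controls and at −0.50 and 0.81 in prominin cultures. All 9 measured values lay below the embryo reference, and 6 of 9 below the median probe. The mean was −0.46 ± 0.95 (SD, n = 9), or −2.01 as deposited.

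Dlx1 was the lowest of the set. Its values were −0.28, −4.04 and −2.21 in controls and −2.87 and −4.06 in prominin cultures at 24 h. At 108 h it was at −5.04 in a single control and at −2.70 and −2.47 in prominin cultures. All 8 values lay below the median probe and the reference, with a mean of −2.96 ± 1.45 (SD, n = 8), or −4.60 as deposited, and a median percentile of 5.96.

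Dlx2, the partner gene of Dlx1, could hardly be read. It was listed at 0 on 8 arrays, among them all 6 controls. The measured values were 0.57 in a prominin culture at 24 h, a small whole-number ratio, and 0.36 and 1.83 in prominin cultures at 108 h. As deposited, 2 of the 3 lay below the reference. Dlx1 had measured values in 4 of the 6 controls where Dlx2 was at 0, and no test was made for Dlx2.

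Nkx2-2 had the highest mean of the 9. It stood at 2.46, 3.44 and 3.17 in controls at 24 h and at 2.60 in the single measured prominin culture at 24 h. At 108 h it was at 4.89, 4.40 and 3.45 in controls and at 7.03, 6.65 and 6.22 in prominin cultures. All 10 values lay above the median probe and above the reference. The mean was 4.43 ± 1.69 (SD, n = 10), or 2.72 as deposited, and the median percentile was 92.7.

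**Figure D2:**
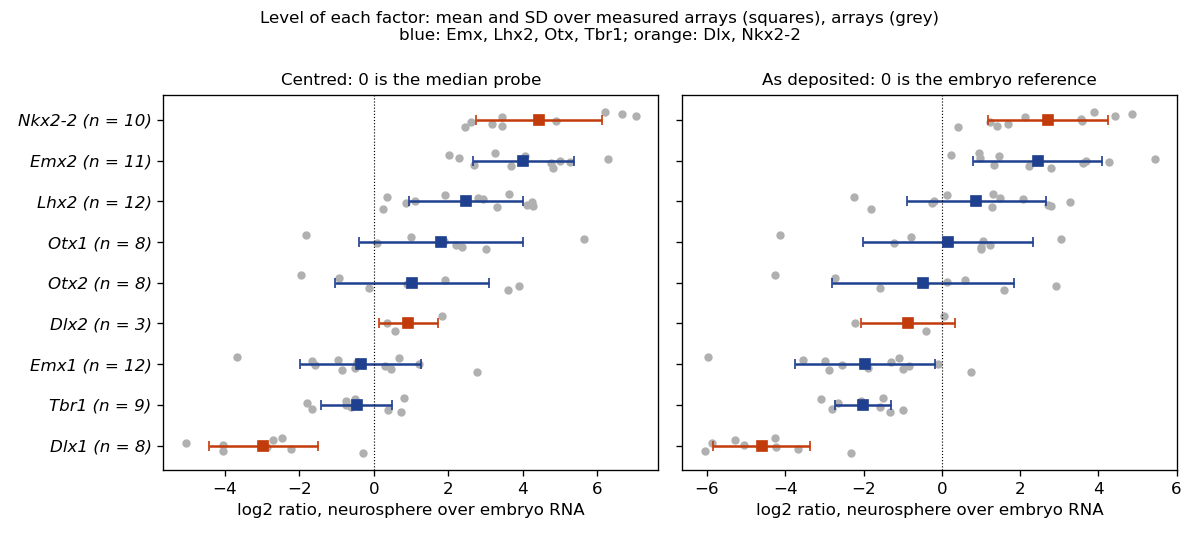
Squares give each factor's mean log2 ratio with its SD over the measured arrays (n beside the name), and grey points are arrays, with arrays centred (left, 0 is the median probe) and as deposited (right, 0 is the embryo reference). The order ran from Nkx2-2 to Dlx1 on both scales, with 6 means above 0 after centring and 4 as deposited.

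A 2-sided exact sign-flip permutation test was run on 8 factors, on both scales, with no adjustment. For Nkx2-2 the exact p was 0.00195 on each scale, and for Dlx1 0.00781 on each, the smallest these numbers of arrays allow. Values that all share a sign always give this smallest p, whatever their size, so it only repeats that they did. The share of all probes that reach it was not counted. Tbr1 differed from the reference (exact p = 0.00391, the smallest possible with 9 arrays) and not detectably from the median probe (0.188). Otx1 did so the other way, with an exact p of 0.0391 centred and 0.844 as deposited. Otx2 passed on neither scale (exact p = 0.242 and 0.609).

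The order of the centred means was Nkx2-2, Emx2, Lhx2, Otx1, Otx2, Dlx2, Emx1, Tbr1 and Dlx1, or with the ratio turned the reverse, Dlx1 highest. Since ratios are each to the same embryo RNA, the order ranks enrichment over the embryo and not abundance. Neighbours were compared on the arrays where both were measured. From Nkx2-2 down to Dlx2, and between Emx1 and Tbr1, no neighbours differed by more than the SD of their difference. Dlx2 exceeded Emx1 by 1.54 ± 0.53 (SD) on 3 of 3 shared arrays. Tbr1 exceeded Dlx1 by 2.63 ± 1.03 (SD) on 5 of 5. Nkx2-2 and Emx2 differed by 0.86 ± 2.22 (SD) over 9 shared arrays, with Nkx2-2 higher on 4.

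Cortical and ventral factors did not separate by level. Each class held members near the top (Emx2 and Lhx2, Nkx2-2) and members at or below the median probe (Emx1 and Tbr1, Dlx1). Within families, Emx2 stood above Emx1, and Otx1 and Otx2 differed by −0.01 ± 1.30 (SD, n = 6 shared arrays).

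None of the 3 tested factors was called between prominin and control cultures or between times. At 24 h the prominin differences ran from −1.39 (Emx1) to 0.48 (Lhx2), and at 108 h from −1.41 (Emx2) to −0.32 (Lhx2). Their SEs were 1.08 to 1.26, and the adjusted p-values of limma were 0.819 or more. From 24 h to 108 h, pooled over treatments, Emx1 moved by −0.91, Lhx2 by −0.72 and Emx2 by −0.43, with adjusted p-values of 0.79 to 0.908. None of these 3 factors reached an unadjusted p under 0.05 in any of the 7 comparisons, and the fit without moderation of the variance called none either. The other factors were not in this fit. Few probes of any kind did better. The share called was 0% for prominin against control at 24 h, at 108 h and pooled, for the difference of the prominin effects and for time in controls, where 419 to 635 probes had an unadjusted p under 0.05. It was 0.0218% for time in prominin cultures and 0.0546% for time pooled over treatments.

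Of the 4 factors with 3 values in each group at 108 h, Nkx2-2 alone had groups that stood apart. At 108 h the prominin cultures (6.63 ± 0.41, SD, n = 3) lay above the controls (4.24 ± 0.73, SD, n = 3) without overlap, by 2.39. The exact permutation test gave p = 0.1, the smallest that 3 against 3 allows. A limma fit with at least 2 values in the groups compared, chosen after seeing the data, gave an unadjusted p = 0.0079 and an adjusted p = 0.77, and it called 0% of 14528 probes. Of the 7704 probes with all 6 values, 12.8% did not overlap and 6.30% did so with prominin higher. Leaving out an array in turn gave 1.99 to 2.71. With fewer values, prominin and control cultures at 108 h did not overlap either for Otx2 (lower), Tbr1 and Dlx1 (higher). Otx2 and Tbr1 had adjusted p-values of 0.725 and 0.818 in limma with 1 value in every group, which called 0% of probes. Values as high in prominin cultures as those of Tbr1, 2 above all 3 controls, were found for 10.6% of probes. The Tbr1 groups overlapped as deposited. For Dlx1, 2 prominin values lay above a single control, as for 34.3% of the 1450 probes with these numbers of values, or 21.2% as deposited, which gives no test. For Nkx2-2 the size depends on scaling: as deposited the difference was 1.31, again without overlap. On that scale 29.5% of probes did not overlap but only 0.454% with prominin higher. The limma fit with at least 2 values in the groups compared was weaker without centring. It gave an SE of 0.78, an unadjusted p = 0.125 and an adjusted p = 0.435. The mean array medians were −2.23 in the prominin and −1.16 in the control group, and their part in the difference was not tested.

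Nkx2-2 was also higher at 108 h than at 24 h. The 6 values at 108 h (5.44 ± 1.41, SD) lay above the 4 at 24 h (2.92 ± 0.46, SD), by 2.52, with an exact permutation p = 0.0143. The gap was narrow, 3.45 against 3.44. As deposited the difference was 2.56 (exact p = 0.00476, the smallest possible). Of 6899 probes with at least 4 and 6 values, 1.70% did not overlap and 1.03% did so with 108 h higher, or 1.25 and 0.522% as deposited. In limma with 1 value in every group the pooled difference was 2.63 (SE 0.63, unadjusted p = 0.00208, adjusted p = 0.431), and 0.0126% of probes were called. The values at 24 h came from 3 controls and 1 prominin culture, and 3 of the 4 were small whole-number ratios, whose part was not tested. Those at 108 h came from 3 of each. The exact tests took no account of treatment, so time and treatment are mixed in them. The other prominin cultures at 24 h held a zero and the top code and were left out, and a top code read as a true ratio would lie above all 6 values at 108 h and end the separation. Within controls the difference was 1.22 (exact p = 0.1, the smallest possible), with no call under the filter of 2 values.

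Nkx2-2 belongs to the oligodendrocyte programme with Olig1, Olig2 and Sox10, and these were set beside it. Olig1, a basic helix-loop-helix factor, stood at 6.68 ± 0.49, 6.88 ± 0.77, 4.76 ± 0.50 and 5.90 ± 0.89 (SD, n = 3 each) in controls and prominin cultures at 24 h and then at 108 h. Olig2 stayed between 4.91 and 5.29 in the 4 group means. Sox10, a glial determinant, was at 1.82 ± 1.66 in controls and 3.23 ± 0.90 in prominin cultures at 108 h (SD, n = 3 each), and these groups overlapped. At 24 h it was measured on 3 arrays only. The 4 centred Nkx2-2 group means rank prominin 24 h, control 24 h, control 108 h, prominin 108 h from low to high. The order at 24 h rests on 1 prominin value (2.60) inside the control range (2.46 to 3.44). As deposited it turns, with 1.18 in controls and 1.22 in that prominin culture. Sox10 (−0.24, 1.18, 1.82 and 3.23) ranks like the centred Nkx2-2 means, as does 1 of 3 probes of the myelin gene Mbp (0.69, 1.37, 3.67 and 4.23). The share of all probes that rank this way was not counted. Pdgfra, also listed for the oligodendrocyte lineage, had 2 probes that disagreed. One lay below the median probe (−3.51, limma adjusted p = 0.00038). Its means were −1.71 and −2.64 in controls and prominin cultures at 24 h, and −4.64 and −5.05 at 108 h. The other gave 2.25, 2.72, 3.22 and 2.76, from 1 or 2 values each. Olig1, Olig2, the other 2 Mbp probes and both Pdgfra probes do not rank like Nkx2-2. No difference between these genes was tested.

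**Figure D3:**
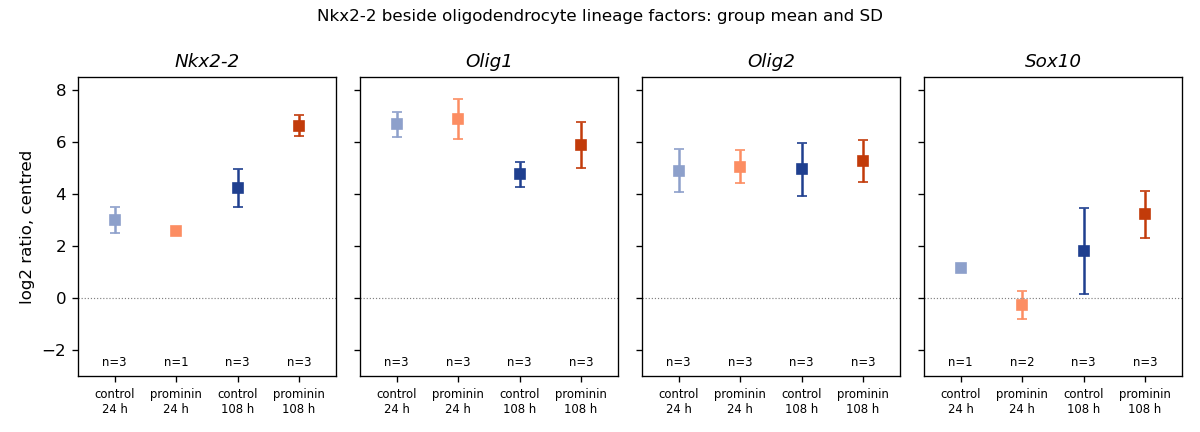
Group means with SD of centred log2 ratios to the embryo reference for Nkx2-2, Olig1, Olig2 and Sox10, with the number of measured arrays under each mean. Nkx2-2 went from about 3.02 in controls at 24 h to 6.63 in prominin cultures at 108 h, while the Olig2 means lay between 4.91 and 5.29.

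The other regional genes came from wider lists. Of 20 tested probes (16 genes) for other dorsal forebrain factors, 4 were called higher and 8 lower, with a median of −0.43. Over all probes tested 30.4% were higher and 25.5% lower, with a median of 0.23. The higher ones were both probes of Pax6, a cortical progenitor factor, which disagreed in size (7.75 and 1.13), with Id4 (1.68), an inhibitor of helix-loop-helix factors, and Lmo4 (1.34), a LIM-only protein. The lower ones included a probe of Sox11 (−4.27), a factor of immature neurons, Lmo2 (−3.62), a probe of Cux1 (−2.41) and another of Sox11 (−2.09). Another Cux1 probe (0.83, limma adjusted p = 0.413) and a further Sox11 probe (−0.10, limma adjusted p = 0.781) did not pass. For ventral forebrain 1 of 6 probes was higher, Nr2e1 (2.51), a nuclear receptor of neural stem cells, and 1 lower, Nkx6-2 (−2.09). Dlx5, a close relative of Dlx1 and Dlx2, did not pass (−0.35, adjusted p = 0.295). Of 11 probes for cofactors of LIM and other homeodomain factors, 2 were higher and 4 lower. Ldb1, the adaptor that Lhx2 binds, was among the lower (−1.34), with Ssbp3 (−1.26) and Meis3 (−2.72). A probe of Tle4 was higher (1.65), and another (1.04, limma adjusted p = 0.207) did not pass. Without centring, 1 dorsal probe was higher and 13 lower, and 1 ventral probe higher and 5 lower. Of the cofactor probes 0 were higher and 6 lower, with the first Tle4 probe at 0.05 (limma adjusted p = 0.893). Over all probes 6.01% were then higher and 61.9% lower.

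Hox genes, which mark the hindbrain, spinal cord and trunk, had 0 of 9 tested probes higher and 5 lower, among them Hoxa5 (−1.87) and Hoxb13 (−1.32), beside 25.5% of all probes lower. Without centring 7 of the 9 were lower, beside 61.9% of all probes. Of 13 probes for the eye, cortical hem and diencephalon, 3 were higher and 5 lower. Both probes of the eye factor Mitf (2.59 and 2.42) and Six3 (1.38) were higher, and Ttr (−6.74), a product of the choroid plexus, was lowest. Without centring 0 of these 13 were higher and 10 lower.

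**Figure D4:**
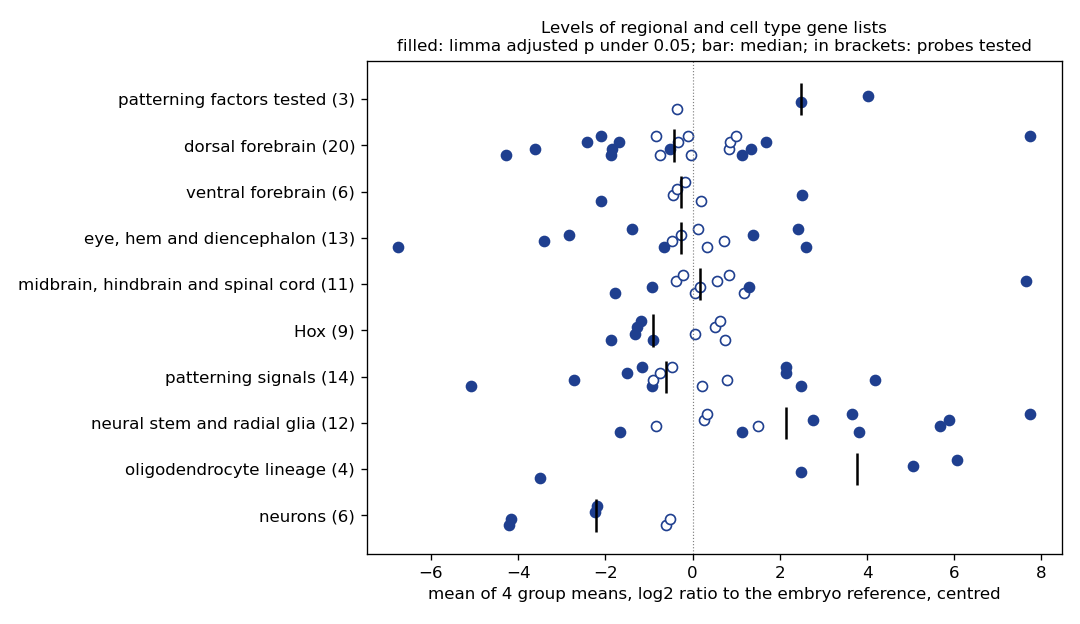
Each point is the fitted level of a tested probe (log2 ratio to the embryo reference, arrays centred) in a list of genes, filled where limma's adjusted p was under 0.05, with a bar at the list's median and the number of probes tested in brackets. Emx2 (4.03) and Lhx2 (2.48) lay above most dorsal forebrain probes, whose median was −0.43.

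For the factors measured on all 12 arrays, the probes with the most similar course were sought among 4139 named probes, by the mean absolute difference after each probe was set to its own mean. Nearest to Lhx2 were Sox9 (0.65), a factor of neural stem cells and glia, and Grik5 (0.70), a kainate receptor subunit, against a median of 1.46 over probes. Sox9 had a mean of 2.39 ± 1.40 (SD, n = 12), close to that of Lhx2. Nearest to Emx1 were AI597479 (0.72) and 4930455G09Rik (0.80), against a median of 1.42. The arrays share a reference and a scaling, and these distances are a description.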

How the data were processed

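The deposited table holds log2 ratios, read as sample over reference, for 21738 probes on 12 two-colour arrays. Per the labels' protocols, RNA was extracted with Trizol and RNeasy columns, and Cy5 and Cy3 were attached by dendrimer labelling. The scanner, the software and any scaling by the authors are not given in the sources used. Exact zeros and the top code of 16.61 were set to missing. Small whole-number ratios are those of whole numbers up to 8, within 0.0006 log2. Arrays were then centred by subtracting the median of 4532 probes that all 12 had measured.

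The 9155 probes with 2 or more values per group were fitted with limma 3.58.1 in R 4.3.3, with 1 mean per group, moderated variance and Benjamini-Hochberg adjustment over all probes at 0.05. Single genes had 2-sided exact permutation tests. The number of arrays limits the precision.

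The factors and the gene lists were chosen with earlier results of these data known. The text names all 9 factors. From the lists of regional genes, signals and cofactors it names the largest probes past the threshold, at most 4 per direction. For the Hox, the cofactor and the eye, hem and diencephalon lists it names fewer than passed within that limit. Exceptions picked after their values were seen are Dlx5, En1, En2, Olig1, Olig2, Sox10, Mbp, Pdgfra, Prom1, Sox2, Fabp7, Hes1 and Nes. So are the probes of Cux1, Sox11, Tle4 and Bmpr1a that did not pass. Of the probes, 16620 had 1 symbol, 113 several and 5005 none. Alternatives were other scalings, codes kept as values, dim values removed, other filters, no moderation, array weights, probes averaged to genes, a replicate block and each array left out.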

Additional observations from a re-analysis of the deposited data

Results flagged for a closer look

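Otx2 was picked out because its measured values lay on opposite sides at the 2 times. At 24 h the single measured prominin culture (3.89) lay above both measured controls (3.61 and −0.12, small whole-number ratios), and at 108 h both measured prominin cultures lay below all 3 controls. The difference of the prominin effects, 108 h minus 24 h, was −4.85. Neither effect passed in limma, and with a single array in an arm and the pattern as the reason for the choice, no test is given for the difference. Of 207 probes with the same numbers of values, 1.45% showed this pattern and 5.80% went opposite ways in either direction.

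Tbr1 was picked out in the same way, with the signs turned. At 24 h its 3 prominin values lay below the single control, all 4 being small whole-number ratios, and at 108 h the 2 prominin values lay above the 3 controls. The difference of the effects was 2.61, again with no test given. Of 103 probes with the same numbers of values, 6.80% showed this pattern and 7.77% went opposite ways. With the deposited values the Tbr1 groups overlapped at both times.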

How the results depend on the processing

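The number of factors whose level was called, 2 in the main fit, was 1 with only probes measured on all arrays, where Emx2 was not tested, 4 with at least 1 value in every group, and 3 of 9 tested with codes kept as values, where Nkx2-2 was called and Dlx1 was not (adjusted p = 0.117). Leaving out an array in turn gave 1 or 2 calls. It was 1 without replicate 2 or replicate 3 of the controls at 24 h, where Emx2 was no longer tested. Without centring it was 2, but of other factors: Lhx2 was lost and Emx1 gained as lower. Emx2 kept its call in all 22 settings that tested it (2.46 to 4.31). In the other 7 comparisons 0 factors were called in every setting run, and over all 8 comparisons 46 of 598 estimates of single factors under an alternative, none called in the main fit, changed sign. Over all probes, the pooled time comparison called 5 of 9155 tested, against 16 with array weights and 36 without moderation. Other settings tested other numbers of probes. The count was 2 of 15907 with at least 1 value in every group. It was 34 of 4532 with probes measured on all arrays, and 26 of 21738 with codes kept as values. Leaving out an array in turn gave 2 to 17, with 17 without replicate 1 of the controls at 24 h. Keeping the codes also changed the level calls from 5113 of 9155 to 9895 of 21738, a lower share. It gave 25 prominin calls at 24 h against 0, over the same numbers of probes. Deviations of samples with equal replicate number correlated by −0.07 to 0.12 (median 0.05), with 3 of 18 pairs over 0.1. Unequal numbers gave −0.12 to 0.12 (median −0.02), with 1 of 36 pairs over 0.1. The correlations were small, but 9 of 12 arrays were closest to their own number. Whether equal numbers share a culture or batch was not tested. With the replicate block the level count was 2 and all other counts 0. Dim spots at 24 h and missing values limit Dlx2, Otx1, Otx2, Tbr1 and Nkx2-2 most.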

Other observations

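Signals that pattern the forebrain, and factors of more caudal regions, were also on the arrays. Of 14 tested probes for patterning signals, 4 were called higher and 5 lower than the median probe (limma, adjusted p under 0.05), beside 30.4 and 25.5% of all probes. Wnt7a (4.18) and Wnt7b (2.49), Wnt ligands made by cortical progenitors, were higher, with Spry4 (2.13), an inhibitor of fibroblast growth factor signalling, and a probe of Bmpr1a (2.15), whose second probe stood at 0.23. Sfrp1 (−5.07), a Wnt antagonist, Smo (−2.72) and Ptch1 (−1.50), which transduce and receive the hedgehog signal, and Spry1 (−1.15) were lower. Without centring 2 of these probes were higher and 9 lower, beside 6.01 and 61.9% of all probes.

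Of 11 probes for midbrain, hindbrain and spinal cord factors, 2 were higher and 2 lower. Egr2, a hindbrain segmentation factor that also acts in glia of peripheral nerves, stood at 7.65 (SE 0.40), above every other tested regional probe but Pax6 at 7.75. Pax5 was higher (1.29), and Gata3 (−1.77) and Fgf8 (−0.92) were lower, while the midbrain factors En1 (−0.22) and En2 (−0.38) did not pass. Without centring 1 was higher and 6 lower. All 4 probes of mesenchyme and all 3 of erythroid cells were lower, with medians of −5.68 and −5.67, and 3 of 4 astrocyte probes were higher, with a median of 6.42.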
